A study of Mus musculus with 11 samples.

Results

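The subunits of the mitochondrial oxidative phosphorylation (OXPHOS) system were followed during differentiation of mouse embryonic stem (ES) cells. Members were all probe sets of the MG_U74Av2 GeneChip that were annotated with exactly 1 gene symbol and whose symbol is that of a subunit of complexes I to V or of cytochrome c. This gave 96 probe sets of 70 genes, out of 10833 probe sets with a single symbol. Complex I had 37 probe sets of 28 genes, complex II 4 of 4, complex III 9 of 8, complex IV 23 of 15, complex V 22 of 14, and cytochrome c 1 of 1. Within complex IV, 4 probe sets of 3 genes (Cox6a2, Cox7a1 and Cox8b) are isoforms known from heart and skeletal muscle, and they are described apart. A further 9 probe sets carry an OXPHOS symbol beside other symbols and were not members. No probe set carried the symbol of a subunit encoded in mitochondrial DNA, so all values concern nuclear genes.

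OXPHOS is the last stage of respiration in the inner mitochondrial membrane. Complexes I (NADH dehydrogenase) and II (succinate dehydrogenase) pass electrons to ubiquinone, complex III (the cytochrome bc1 complex) passes them on to cytochrome c, and complex IV (cytochrome c oxidase) passes them to oxygen. Complexes I, III and IV pump protons, and complex V (ATP synthase) uses the return flow of protons to make ATP. Several small subunits of complex IV exist as paired isoforms, one found in most tissues and another in contractile muscle. Heart muscle is known for its dense mitochondria and high respiratory capacity.

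Total RNA was measured on 11 arrays of 4 groups, named by the sample titles. The feeder cells (n = 2, replicates 6 and 10) were mouse embryonic fibroblasts, on which the ES cells are grown. The undifferentiated cells (n = 3, replicates 1, 5 and 9) were ES line R1 kept on such a feeder layer. R1 cells were differentiated for 4+8 days (n = 3, replicates 1, 2 and 3) or for 4+11 days (n = 3, replicates 4, 8 and 12) by a protocol that yields cells positive for nestin, a filament protein known from neural progenitors. The labels state 3 independent cultures, but whether each of the feeder arrays is a culture of its own is not stated. The feeder arrays may therefore not be independent replicates. The p-values with feeder cells use a spread pooled over all 4 groups, which may not hold the spread between feeder cultures. All R1 groups come from 1 cell line. Feeder replicate 10 has the ES line as its source name, and its title was used. In each differentiated culture the cells are a mixture, so a change in the share of a cell type and a change in RNA per cell cannot be told apart.

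The 4+8 day arrays stood apart technically before any biology was considered. Their deposited trimmed mean intensity was 200.1 each, against 86.15 to 160.2 on the other 8 arrays, and they had a scan session and a chip lot of their own. Session and group cannot be told apart in either comparison that uses them. Actin 3' to 5' ratios were 1.70 to 2.18 on the 4+8 day arrays and 1.47 to 1.93 on the others. Values below are quantile-normalised intensities, and differences are on the scale log2(intensity + 8), each with its standard error (SE). The nestin gene Nes had intensities of 397, 599 and 385 on the 4+11 day arrays and 216, 196 and 165 on the undifferentiated arrays (log2 difference 1.204, adjusted p = 0.026). On the 4+8 day arrays Nes had 233, 417 and 195, which was not called against undifferentiated cells (0.46, adjusted p = 0.27). Feeder cells had 573 and 351 and were also called higher for Nes (1.197). None of the other neural progenitor markers was called higher at either stage. Sox2 was called lower at 4+8 days (-3.32) and not called at 4+11 days (-2.80). Sox1 (0.62 and 0.85), Pax6 (-0.26 and 0.01) and Fabp7 (4.00 and 4.87) were called at neither stage. Fabp7 varied widely between cultures, with 411, 1320 and 22.2 at 4+8 days and 543, 4700 and 31.7 at 4+11 days. In undifferentiated cells it had 3.84, 4.45 and 19.9, so low that the size depends on the 8 added before the logarithm. All 6 pluripotency markers were lower at 4+8 days, at 4+11 days and in feeder cells than in undifferentiated cells, and 5 of 7 fibroblast markers were higher in feeder cells. Fibroblast markers also moved with the 4+8 day group, where 5 of 7 were higher and 1 (Thy1) lower than in undifferentiated cells (median 1.61), and 2 of 7 were higher at 4+11 days. The part of such cells in the OXPHOS values was not tested.

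Of the 96 member probe sets, 78 of 66 genes passed the filter on dim probe sets (above 33.35 on at least 2 arrays) and were tested. The 18 that did not were probe sets of Ndufa1, Ndufb2, Ndufb6, Ndufb7, Ndufb10, Ndufc2, Cox5a, Cox6c, Cox8a, Cox8b, Cox8c, Atp5d, Atp5g1, Atp5g2 and Atp5j2, so that Ndufc2, Cox5a, Cox8a and Atp5j2 had no tested probe set. Of the tested members, 64 were above the filter value on every array, and 2 (Ndufa12 and Cox6b2 160813_r_at) only on arrays of a single group. The spread between replicates was smaller for the OXPHOS members than for the array as a whole. The members were also brighter, since only 831 of the 8940 probe sets tested had a mean log2 intensity at or above the members' median. Spread at equal brightness was not compared. The median SD on the log2 scale was 0.09 for members and 0.155 for all 8940 probe sets tested in feeder cells, 0.12 and 0.20 in undifferentiated cells, 0.27 and 0.45 at 4+8 days, and 0.16 and 0.255 at 4+11 days.

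At 4+8 days, more OXPHOS probe sets were higher than lower relative to undifferentiated cells under the quantile normalisation used here. How that balance stood against the whole array differed between scalings and between counts and medians. By limma's moderated test with Benjamini-Hochberg adjustment over all 8940 probe sets, 22 of 78 members (28.2%) were called higher and 10 (12.8%) lower, and 46 were not called. Over all probe sets tested, 17.2% were called higher and 19.9% lower. Among the 831 at or above the members' median brightness, 19.5% were higher and 19.3% lower. The median log2 difference of the members was 0.18, with a range of -2.27 to 4.97, and that of all probe sets was 0.01. Of the 22 higher members 7 exceeded 1 on the log2 scale (Cox6a2, Cyc1 162469_r_at, Cox8b, Ndufa10, Cox8c, Ndufa1 and Ndufb7), and of the 10 lower ones 5 were below -1. Where the members sit relative to the array depends on the scaling. With arrays scaled to a common trimmed mean, the members' median was 0.17 and that of all probe sets 0.27, and 22 of 81 members were higher and 9 lower, where 26.9% of all probe sets were higher and 16.1% lower, so the members' share of higher calls was near that of the array. On the values as deposited the median of all probe sets shifted to 1.07, and the members' median was 0.99. Of 85 members, 59 were higher and 0 lower (1 lower at an unadjusted p under 0.05 by limma). Of all probe sets 59.2% were higher and 4.04% lower. There the members' share of higher calls was above that of the array, while their median was below it.

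Single arrays weigh on that count. The median of the 78 members, relative to the undifferentiated mean, was 0.39 on 4+8 day replicate 1, against 0.08 on replicate 2 and 0.07 on replicate 3. Without replicate 1 of the 4+8 day group, 14 of 77 members were called higher and 11 lower, and the median was 0.03. Over all probe sets that fit called 16.0% higher and 19.3% lower, so the members' counts were near the array's shares. Without undifferentiated replicates 1, 5 or 9 in turn, 14, 13 and 15 were called higher and 7 lower each time, against 11.8%, 13.1% and 11.5% of all probe sets higher and 14.6%, 16.3% and 14.0% lower. In fits that left out each of the 6 arrays in turn, calls remained for 13 of the 22 higher probe sets (Ndufa1, Ndufa8, Ndufa10, Ndufb2, Ndufb7, Ndufb8, Cyc1 162469_r_at, Cox6a2, Cox7a2l, Cox8b, Cox8c, Atp5g1 and Atp5o) and for 7 of the 10 lower ones (Ndufs1, Sdha, Cyc1 95072_at, Cox7b, Cox6c and Cox6b2 with 2 probe sets, of which 160813_r_at passed the filter in 4 of these fits). Over all alternatives, scalings included, 9 of the 22 higher calls and 1 of the 10 lower calls were made every time.

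**Figure D1:**
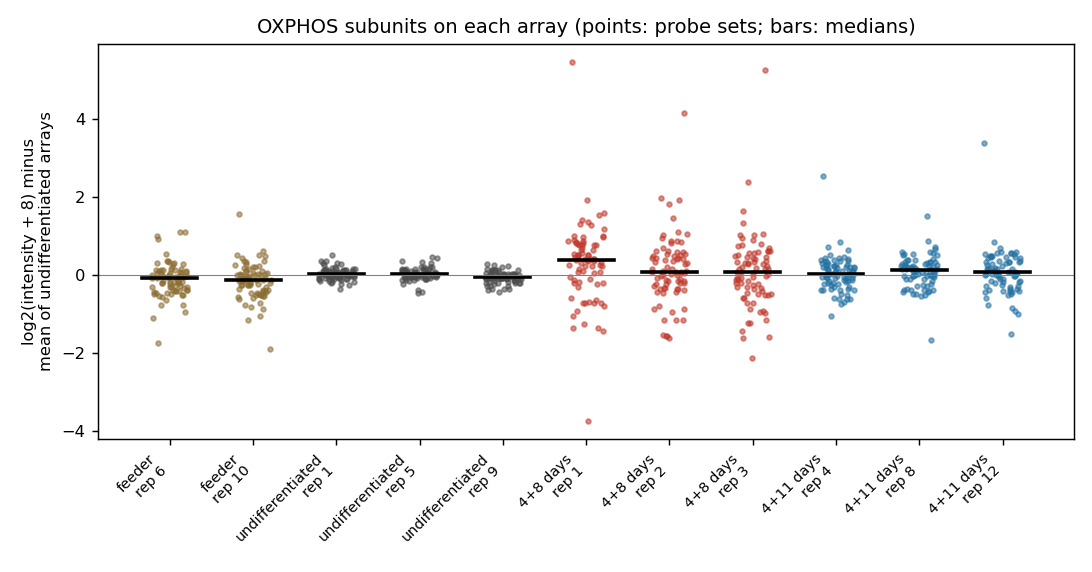
Log2(intensity + 8) of the 78 tested OXPHOS probe sets on each of the 11 arrays, minus the probe set's mean over the undifferentiated arrays. Points are probe sets and bars the median of each array. The bar of 4+8 day replicate 1 lies at 0.39, those of the other 4+8 day arrays at 0.08 and 0.07, and those of the feeder arrays at -0.07 and -0.13. The highest points at 4+8 and 4+11 days are Cox6a2 on all 6 arrays.

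At 4+11 days, few members differed from undifferentiated cells. Only Cox6a2, Atp5md, Ndufa13 and Ndufb7 were called higher and Cyc1 (95072_at) lower, that is 4 of 78 (5.13%) and 1 of 78 (1.28%), against 9.22% and 9.44% of all probe sets tested. At an unadjusted p under 0.05 by the same limma fit, 7 members were higher and 4 lower. The members' median log2 difference was 0.08 and that of all probe sets -0.03. Among the 831 probe sets at or above the members' median brightness, 16% were higher and 10.2% lower. Within fluidics run 1 the members' median was -0.01 and within run 2 it was 0.20, and with the run as a block 4 members were called higher and 2 lower. Of these calls, that of Cox6a2 was the only one made in each fit that left out 1 array, and 1 or 2 members were called higher in each of those fits. The counts in those fits and with the run as a block are given without the share of all probe sets called. None of the 5 calls was made in every alternative. Without the arrays washed under another protocol (undifferentiated replicate 9 and 4+11 day replicate 12) 0 members were called, where 4 were higher and 2 lower at an unadjusted p under 0.05 by limma, and 2.26% of all probe sets were called higher and 2.23% lower.

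**Figure D2:**
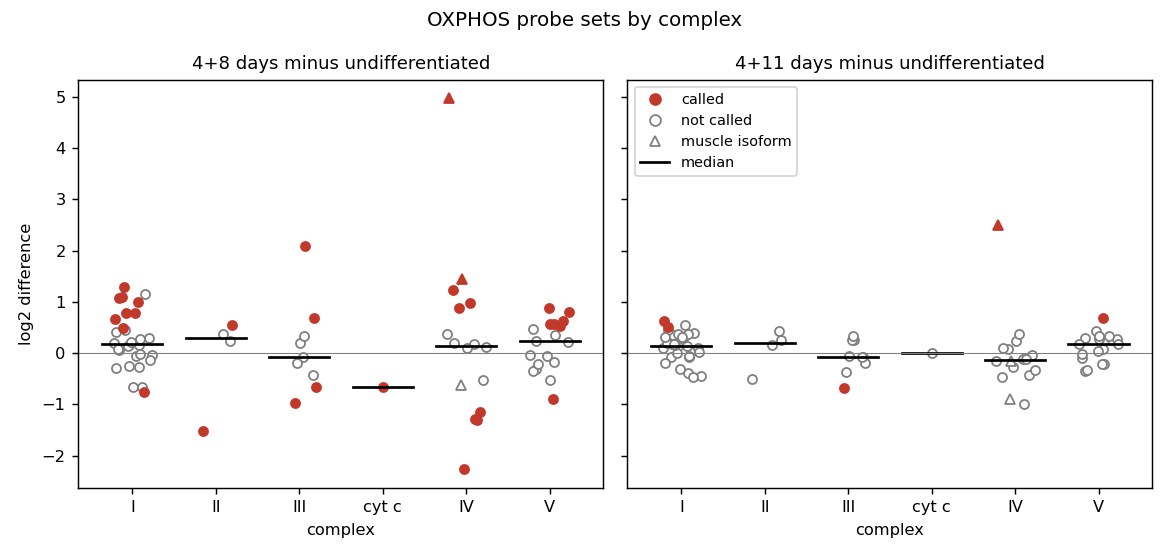
Log2 differences of the tested probe sets by complex, for 4+8 days (left) and 4+11 days (right) against undifferentiated cells. Filled symbols are called at an adjusted p below 0.05, triangles are muscle isoforms and bars are medians. Cox6a2 lies at 4.97 and 2.49, and most other members lie between -1 and 1.

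Complex I, where NADH enters the chain, had 30 tested probe sets. Of these, 8 were higher and 1 lower at 4+8 days than in undifferentiated cells, with a median of 0.18. The most positive was Ndufa10, an accessory subunit of the membrane arm. Its intensities were 148, 97.8 and 174 at 4+8 days and 57.4, 47.2 and 48.2 in undifferentiated cells (1.29 ± 0.22, adjusted p = 0.00198). The groups did not overlap. Ndufa10 at 4+11 days had 72.0, 56.95 and 73.1, and the difference of 0.35 was not called.

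Ndufb7, an accessory subunit on the intermembrane side, was among the steadiest of the higher members. It had 2420, 2188 and 2152 at 4+8 days and 985, 1121 and 1081 in undifferentiated cells (1.08 ± 0.15, adjusted p = 0.000717). Its 4+11 day arrays had 1430.0, 1580 and 1539 (0.51 ± 0.15, adjusted p = 0.0449), which rested on each array, since leaving out any 1 of the 6 gave an adjusted p of up to 0.153. Ndufa13 (GRIM-19), an accessory subunit needed for assembly, had 640, 493 and 539 at 4+8 days and 395, 347 and 305 in undifferentiated cells (0.66 ± 0.19, adjusted p = 0.0193), a call lost without undifferentiated replicate 5 or 9 (adjusted p up to 0.0774). The 4+11 day arrays had 627, 502 and 505 (0.63 ± 0.19, adjusted p = 0.0407), and that call was lost without any 1 array (adjusted p up to 0.155). All differentiated arrays of Ndufa13 and Ndufb7 lay above all undifferentiated arrays.

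Ndufs1, the largest core subunit and a carrier of iron-sulphur clusters, went the other way. It had 385, 331 and 319 at 4+8 days and 638, 530 and 592 in undifferentiated cells (-0.75 ± 0.17, adjusted p = 0.00664). On the values as deposited, where the median of all probe sets shifted to 1.07, the Ndufs1 difference was -0.04 and not called. The 4+11 day arrays of Ndufs1 had 382, 449 and 437, below all undifferentiated arrays but not called (-0.47 ± 0.17, adjusted p = 0.0801). The other complex I probe sets called at 4+8 days were Ndufa1 (1.09), Ndufb2 95132_r_at (0.996), Ndufa8 (0.79), Ndufb8 (0.77) and Ndufa6 (0.48), all accessory subunits and all higher. The other tested Ndufb2 probe set, 95131_f_at, was not called at 4+8 days (0.15) or between the stages (0.23, against -0.85 for 95132_r_at). Ndufa6 lost its call without either 4+8 day replicate 1 or 3 or any undifferentiated array (adjusted p up to 0.109). The core subunits Ndufs3, Ndufv1 and Ndufv2 and the accessory subunits Ndufs4, Ndufa9 and Ndufc1 were not called, with log2 differences at 4+8 days between -0.28 and 0.45.

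Complex II, which is also an enzyme of the tricarboxylic acid (TCA) cycle, has only 4 subunits, and each had 1 tested probe set. Sdha, the flavoprotein that oxidises succinate, fell to 53.7, 58.1 and 25.8 at 4+8 days, against 153, 136 and 133 in undifferentiated cells (-1.52 ± 0.25, adjusted p = 0.00157). Its 4+11 day values of 95.2, 97.2 and 97.25 lay between those groups and were not called against undifferentiated cells (-0.50 ± 0.25, adjusted p = 0.197). Sdhb, the iron-sulphur subunit that partners it, was higher at 4+8 days, with 1319.75, 1095 and 916 at 4+8 days and 731, 747 and 765 in undifferentiated cells (0.55 ± 0.18, adjusted p = 0.0341). The Sdhb call was lost without 4+8 day replicate 1 or any undifferentiated array (adjusted p up to 0.0965), while that of Sdha was made in every such fit. On the values as deposited the Sdha difference was -0.39 and not called.

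The membrane anchors of complex II were not called. Sdhd had 819, 348 and 601 at 4+8 days, 653, 521 and 767 at 4+11 days and 472, 493 and 456 in undifferentiated cells, so that 4+8 day replicate 2 fell below the undifferentiated range. Its log2 differences were 0.23 at 4+8 days and 0.43 at 4+11 days. Sdhc had 0.37 and 0.15.

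Complex III had 9 tested probe sets, of which 2 were higher and 2 lower at 4+8 days, with a median of -0.07. One of each belongs to Cyc1, cytochrome c1, the haem subunit that hands electrons to cytochrome c, and its probe sets opposed each other. Probe set 162469_r_at had 1326, 1322 and 1813 at 4+8 days and 415, 360.0 and 266 in undifferentiated cells (2.08 ± 0.23, adjusted p = 0.0002). Probe set 95072_at had 1819, 1887 and 1543 at 4+8 days and 3583, 3138 and 3616 in undifferentiated cells (-0.98 ± 0.17, adjusted p = 0.00179). Neither pair of groups overlapped. On the values as deposited the difference of 95072_at was -0.19 and not called. The suffix _r marks a probe set for which Affymetrix had to drop some of its probe rules, and 95072_at has no suffix. Which of them reports Cyc1 RNA was not tested, so no direction is given for the gene at 4+8 days.

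Probe set 95072_at at 4+11 days had 2053, 2349 and 2022, below every undifferentiated array (-0.68 ± 0.17, adjusted p = 0.0195). That call was lost without 4+11 day replicate 4 or 12 or undifferentiated replicate 1 or 9 (adjusted p up to 0.0755). Probe set 162469_r_at had 439, 408 and 388 at 4+11 days and was not called (0.26). Uqcrb, the ubiquinone-binding subunit, was higher at 4+8 days (0.68 ± 0.20, adjusted p = 0.0214) and Uqcrc2, a core protein, lower (-0.65 ± 0.21, adjusted p = 0.0314). Uqcrb lost its call without 4+8 day replicate 1 or undifferentiated replicate 1 or 5 (adjusted p up to 0.0764), and Uqcrc2 without any 1 of the arrays but 4+8 day replicate 2 (adjusted p up to 0.0826). Uqcrh, the hinge protein, had 1845, 1819 and 1621 at 4+8 days, 1759, 1621 and 1901 at 4+11 days and 1403, 1456 and 1312 in undifferentiated cells. All differentiated arrays were higher, by 0.34 at both stages, but neither difference was called.

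Cycs, somatic cytochrome c, the mobile carrier between complexes III and IV, fell at 4+8 days. It had 101, 133 and 87.3 at 4+8 days and 188, 169 and 159 in undifferentiated cells (-0.66 ± 0.19, adjusted p = 0.0213). Without undifferentiated replicate 1 or 5 the adjusted p was up to 0.0809, and on the values as deposited the difference was 0.31. Cycs at 4+11 days had 160, 189 and 171, and the difference of 0.01 was not called.

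Complex V, the ATP synthase, had 18 tested probe sets, of which 6 were higher and 1 lower at 4+8 days, with a median of 0.23. The most positive was Atp5g1, a gene for subunit c of the rotor ring, with 62.2, 70.8 and 53.8 at 4+8 days and 39.2, 20.04 and 33.95 in undifferentiated cells (0.87 ± 0.22, adjusted p = 0.013). Its 4+11 day values were 27.15, 35.7 and 30.98, within the undifferentiated range. Atp5o, the stalk subunit that confers oligomycin sensitivity, was higher by 0.79 ± 0.20 (adjusted p = 0.0122). Atp5j (coupling factor 6) was higher by 0.56 and Atp5d 162343_f_at (the delta subunit) by 0.62. Leaving out 4+8 day replicate 1 or any undifferentiated array lost the Atp5j call (adjusted p up to 0.0879). The Atp5d call was lost in each of the 6 fits that left out an array (adjusted p up to 0.154), and the other 3 tested Atp5d probe sets were not called.

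Atp5md (DAPIT), a small subunit that helps ATP synthase form dimers, was higher at both stages. It had 2764, 2088 and 2195 at 4+8 days, 2257, 2583 and 2870 at 4+11 days and 1507, 1572 and 1663 in undifferentiated cells. The log2 difference was 0.56 ± 0.18 at 4+8 days (adjusted p = 0.0323) and 0.69 ± 0.18 at 4+11 days (adjusted p = 0.0241). Both calls were lost in some fits that left out an array (adjusted p up to 0.1 and 0.0882), among them each fit without an undifferentiated array. Atp5a1, the catalytic-head subunit alpha, was the most negative at 4+11 days without being called, with 3471, 3319 and 2703 against 4103, 3757 and 4265 (-0.36, adjusted p = 0.175).

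Atp5l, subunit g, was the other gene whose probe sets opposed each other. Probe set 93014_at had 3018, 3054 and 3018 at 4+8 days and 1887, 2125 and 2317 in undifferentiated cells (0.53 ± 0.16, adjusted p = 0.0309). Probe set 99678_f_at had 15.4, 27.1 and 41.9 at 4+8 days and 67.6, 38.3 and 66.15 in undifferentiated cells (-0.89 ± 0.31, adjusted p = 0.0492). The groups overlapped on 99678_f_at. Its call was lost without 4+8 day replicate 1 or 2 or undifferentiated replicate 1 or 9 (adjusted p up to 0.147) and its sign turned on the values as deposited (0.35). The call of 93014_at was lost without 4+8 day replicate 1 or 3 or undifferentiated replicate 1 or 5 (adjusted p up to 0.112). The suffix _f marks a probe set that matches several sequences of 1 family.

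**Figure D3:**
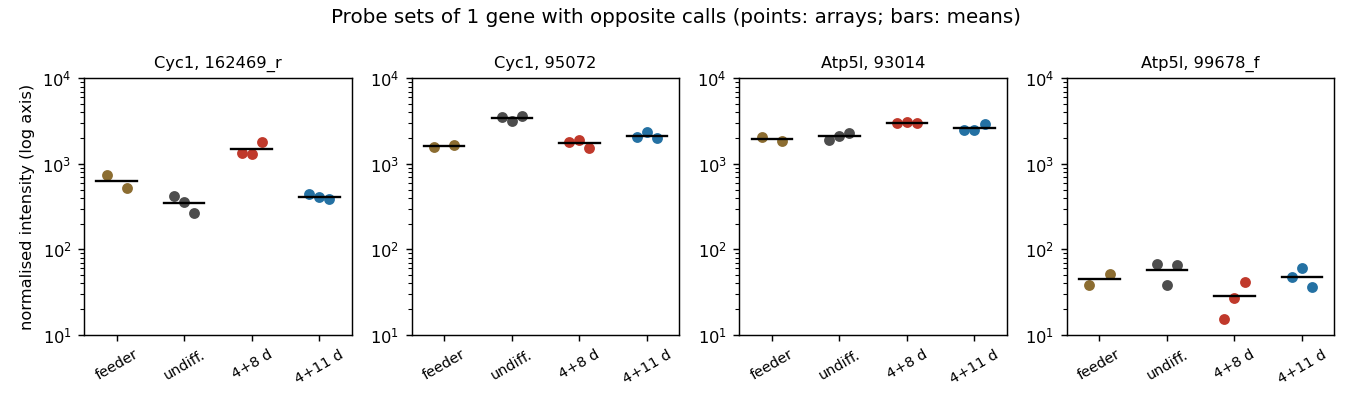
Normalised intensities (log axis) of the probe sets of Cyc1 and Atp5l by group, with points for arrays and bars for group means. Levels of different probe sets are not comparable, but the order of groups is. At 4+8 days the mean of Cyc1 162469_r_at was 1487 against 347 in undifferentiated cells, while that of Cyc1 95072_at was 1749.9 against 3446.

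Complex IV, which reduces oxygen, had 16 tested probe sets and the widest range. Of these, 5 were higher and 4 lower at 4+8 days, with a median of 0.14. Cox6a2, described next, was at the top. The most negative was Cox6b2 97351_i_at, an isoform gene known for its expression in testis, with 16.8, 101 and 116 at 4+8 days and 290, 402 and 296 in undifferentiated cells (-2.27 ± 0.57, adjusted p = 0.012). A second Cox6b2 probe set, 160813_r_at, had 8.75, 6.54 and 14.3 at 4+8 days, 12.7, 24.6 and 7.01 at 4+11 days and 25.2, 46.75 and 35.3 in undifferentiated cells. It was lower at 4+8 days (-1.29 ± 0.31, adjusted p = 0.0102) and not called at 4+11 days (-0.99 ± 0.31, adjusted p = 0.053). It passed the filter only through undifferentiated replicates 5 and 9, where it was high, so its lower call is no independent support, although it is among the 10 lower members. The third, 97352_f_at, was not called.

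Other structural subunits of complex IV moved in both directions at 4+8 days. Cox7b, a small subunit, had 707, 389 and 379 at 4+8 days and 1267, 1302 and 965 in undifferentiated cells (-1.30 ± 0.30, adjusted p = 0.00805). Cox6c 100550_f_at had 1473, 1378 and 1310 against 3138, 3119 and 2977 (-1.15 ± 0.15, adjusted p = 0.000522), with no overlap. On the values as deposited neither was called (-0.58 for Cox7b and -0.35 for Cox6c). Cox7a2l, which links complexes III and IV into supercomplexes, was higher, with 1097, 1016 and 1152 at 4+8 days and 579, 552 and 524 in undifferentiated cells (0.97 ± 0.15, adjusted p = 0.0011). Cox8c, an isoform gene known from testis, was higher by 1.23 ± 0.30 and Cox4i1 93788_at by 0.87 ± 0.27, and the other Cox4i1 probe set, 102124_f_at, was not called (0.17). Cox4i1 93788_at lost its call without 4+8 day replicate 1 or any undifferentiated array (adjusted p up to 0.081).

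The muscle isoforms held the largest difference among the members. The gene of Cox6a2, the heart and skeletal muscle form of subunit VIa, lies at chr7:128205435-128206366 (RefSeq, GRCm38.p6). Cox6a2 had intensities of 36.1 and 57.35 in feeder cells, 14.5, 16.2 and 11.95 in undifferentiated cells, 974, 391 and 844 at 4+8 days, and 121, 55.8 and 226 at 4+11 days. Every 4+8 day array lay above every 4+11 day array, and every 4+11 day array above every undifferentiated array. The log2 difference from undifferentiated cells was 4.97 ± 0.47 at 4+8 days (adjusted p = 8.76e-05) and 2.49 ± 0.47 at 4+11 days (adjusted p = 0.00636), and the difference of 4+11 days from 4+8 days was also called (-2.48 ± 0.47, adjusted p = 0.00629). The undifferentiated arrays were below the filter value, so the size depends on the value added before the logarithm. With additions at the 5th and 40th percentile of all values (1.9 and 30.68), the 4+8 day difference was 5.42 and 4.00. The 4+8 day call was made in every alternative run, while the 4+11 day call was lost without the arrays washed under another protocol (1.95, adjusted p = 0.065).

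Its counterpart in most tissues, Cox6a1 (chr5:115345652-115348958), was not called in any comparison. It had 2449 and 2764 in feeder cells, 2849, 3054 and 2631 in undifferentiated cells, 3909, 2896 and 3002 at 4+8 days and 2764, 3384 and 3018 at 4+11 days, so the groups overlapped. The log2 difference between Cox6a2 and Cox6a1 within each array was larger at 4+8 days than in undifferentiated cells by 4.78, and at 4+11 days by 2.39. In both cases the groups did not overlap, and the exact two-sided permutation test gave p = 0.1, the smallest that 3 arrays against 3 allow, or 0.2 adjusted over the 6 isoform tests.

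The second muscle isoform behaved differently. Cox7a1 (chr7:30184171-30186030), the muscle form of subunit VIIa, had 8.87 and 7.18 in feeder cells, 65.45, 45.3 and 38.95 in undifferentiated cells, 26.5, 69.3 and 10.6 at 4+8 days and 29.95, 9.84 and 34.1 at 4+11 days. It was not called at 4+8 days (-0.63 ± 0.49, adjusted p = 0.335) or at 4+11 days (-0.90 ± 0.49, adjusted p = 0.235). Its counterpart Cox7a2 had 1242 and 1168 in feeder cells, 1687, 1780.3 and 1615 in undifferentiated cells, 2167, 1941 and 1459 at 4+8 days and 1107, 1583 and 1383 at 4+11 days, and was not called either. The difference between the isoforms shifted by -0.74 at 4+8 days and -0.56 at 4+11 days, with overlapping groups (exact permutation p = 0.3 and 0.6).

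The third, Cox8b (chr7:140898942-140900446), the muscle form of subunit VIII, was higher at 4+8 days on 1 of its 2 probe sets. Probe set 160851_r_at had 56.6 and 50.9 in feeder cells, 93.2, 80.6 and 52.55 in undifferentiated cells, 230.1, 218 and 197 at 4+8 days and 58.0, 73.5 and 65.8 at 4+11 days. The 4+8 day arrays lay above all others (1.45 ± 0.21 against undifferentiated cells, adjusted p = 0.000852), and 4+11 days was not called (-0.15). The other probe set, 161205_at, was too dim to be tested, with 26.9, 19.4 and 27.1 at 4+8 days and 19.0, 4.24 and 15.25 in undifferentiated cells. The counterpart Cox8a was also too dim, at 2.41 to 19.9 over all 11 arrays, so the shift of the Cox8b minus Cox8a difference (1.86 at 4+8 days, exact permutation p = 0.1, and 0.47 at 4+11 days, p = 0.2) carries little about Cox8a.

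**Figure D4:**
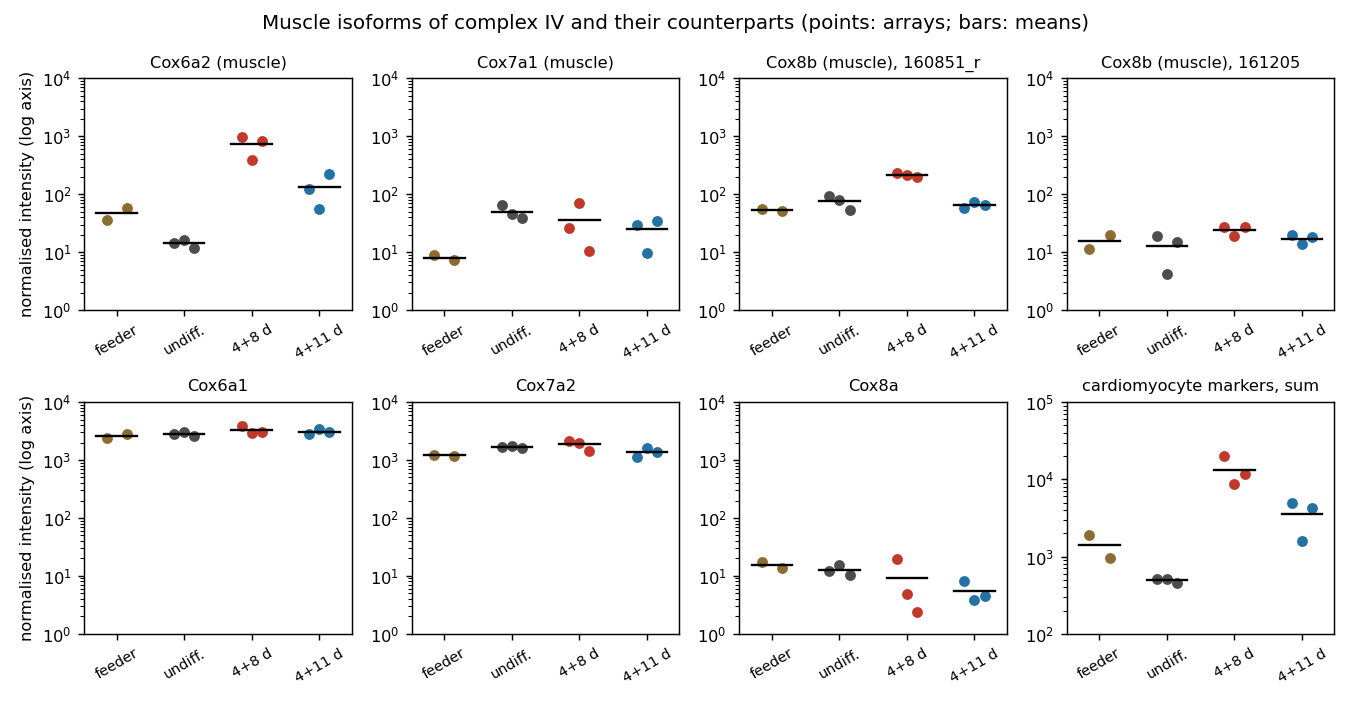
Normalised intensities (log axis) of the muscle isoform probe sets, of their counterparts Cox6a1, Cox7a2 and Cox8a, and the summed intensity of 15 cardiomyocyte markers (own scale), by group. Points are arrays and bars are group means. Cox6a2 and the cardiomyocyte sum share the order 4+8 days, 4+11 days, feeder, undifferentiated by mean, while Cox6a1 lies between 2449 and 3909 on all arrays.

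Markers of cardiomyocytes moved with Cox6a2. Of 15 markers on the array, 13 were tested. At 4+8 days 13 were higher than in undifferentiated cells (median 4.75), and at 4+11 days 11 were (median 2.54). Between the stages, 9 were lower at 4+11 days. Of all probe sets tested, 17.2% and 9.22% were higher and 10.8% lower in these comparisons. Only 3 of the 15 markers had a mean above the filter value in undifferentiated cells. Myh6, Myh7, Myl2, Myl3, Myl7, Tnni3 and Mybpc3 exceeded it only on differentiated arrays. They were tested only through the groups where they were high, so their higher calls are no independent support. Myh7, the slow cardiac myosin heavy chain, differed by 7.02 at 4+8 days and 3.88 at 4+11 days, and Tnnt2, cardiac troponin T, by 4.75 and 2.70. Both were below the filter value in undifferentiated cells, so these sizes depend on the added constant. The summed intensity of the list was 947.9 to 1878.8 in feeder cells, 448.0 to 517.5 in undifferentiated cells, 8619.9 to 19794.1 at 4+8 days and 1566.7 to 4953.5 at 4+11 days. At 4+8 days the array with the highest sum (replicate 1) had the highest Cox6a2 and that with the lowest (replicate 2) the lowest. At 4+11 days the lowest sum and the lowest Cox6a2 were both on replicate 8, while the highest sum was on replicate 4 and the highest Cox6a2 on replicate 12. The defining markers Nkx2-5 and Ryr2 had means below the filter value in all groups, and no marker was at 0.

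Among skeletal muscle markers, Myog (myogenin), a transcription factor of muscle differentiation, had the same order of stages. It had 189, 143 and 140 at 4+8 days and 22.3, 45.1 and 48.9 in undifferentiated cells (1.86, adjusted p = 0.00171), and 46.3, 35.9 and 79.4 at 4+11 days, lower than at 4+8 days (-1.47, adjusted p = 0.0109). It was the only 1 of 5 tested markers called higher at 4+8 days, out of 9 on the array, and 0 were called lower. The median log2 difference of the 5 was -0.22. Actn3 was called lower at 4+11 days (-1.36, adjusted p = 0.0101) but not at 4+8 days (-0.78, adjusted p = 0.0541). Myf5, Myf6, Myh1, Myh4 and Tnnt3 had means below the filter value in all groups. The intensity summed over all 9 markers was 362.1 to 370.5 at 4+8 days and 276.5 to 311.2 in undifferentiated cells. Of 4 macrophage markers, 3 were higher at 4+11 days than in undifferentiated cells, with a summed intensity of 562.2 to 9196.8, against 40.6 to 329.0 in undifferentiated cells. The part of any of these cell types in the OXPHOS values was not tested.

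Between the differentiation stages more members were lower than higher at the later one. Of 78 members, 14 (17.9%) were lower and 7 (8.97%) higher at 4+11 days than at 4+8 days, against 10.8% and 12.2% of all probe sets tested. The members' median log2 difference was -0.10 and that of all probe sets 0.05. Among the 831 probe sets at or above the members' median brightness, 6.38% were lower and 11.3% higher. The lower ones were Cox6a2 (-2.48), Cyc1 162469_r_at (-1.82), Cox8c (-1.69), Cox8b (-1.60), Ndufa1 (-1.18), Ndufa10 (-0.94), Ndufb2 95132_r_at (-0.85), Atp5g1 (-0.84), Uqcrb (-0.76), Atp5o (-0.62), Ndufb8 (-0.62), Cox7a2l (-0.61), Atp5g2 102134_f_at (-0.57) and Ndufb7 (-0.57). The higher ones were Cox6b2 97351_i_at (2.002), Cox7b (1.19), Sdha (1.02), Ndufb9 (0.96), Cox6c (0.72), Cycs (0.67) and Ndufa2 (0.60). This comparison and that of 4+8 days with undifferentiated cells share the 4+8 day arrays, so their calls are not independent.

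Ndufb9 and Ndufa2, accessory subunits of complex I, were called here although neither was called at 4+8 days against undifferentiated cells. Ndufb9 had 596, 586 and 594 at 4+11 days and 442, 211 and 288 at 4+8 days. Ndufa2 had 813, 685 and 780.1 at 4+11 days and 577, 550 and 388 at 4+8 days. In fits that left out 1 array each, calls remained for 6 of the 14 lower probe sets (Cox6a2, Cyc1 162469_r_at, Cox8c, Cox8b, Ndufa1 and Ndufa10) and for 1 of the 7 higher ones (Cox6c), and the counts higher and lower were 1 and 6 without 4+11 day replicate 4, 4 and 14 without replicate 8, and 2 and 8 without replicate 12. These counts are given without the share of all probe sets called in each fit, so they do not set the members against the array. Over all alternatives 5 of the 14 lower calls and 0 of the 7 higher calls were made every time. Without the arrays washed under another protocol 5 were called lower and 0 higher, where 7 were higher at an unadjusted p under 0.05 by limma, and 5.38% of all probe sets were lower and 5.02% higher.

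Feeder cells differed from undifferentiated cells in few OXPHOS members. Of 78 members, 1 (1.28%) was higher and 4 (5.13%) lower, against 10% and 10.3% of all probe sets tested, and at an unadjusted p under 0.05 by the same limma fit 3 were higher and 8 lower. The members' median log2 difference was -0.13 and that of all probe sets -0.02. Among the 831 probe sets at or above the members' median brightness, 15.9% were higher and 14.9% lower. The lower ones were Cox7a1 (-1.83 ± 0.55, adjusted p = 0.0411), Cyc1 95072_at (-1.08 ± 0.19, adjusted p = 0.00414), Uqcrc2 (-0.79 ± 0.23, adjusted p = 0.0373) and Atp5a1 (-0.75 ± 0.19, adjusted p = 0.0222). Cyc1 162469_r_at was higher (0.85 ± 0.26, adjusted p = 0.042), again opposite to the other Cyc1 probe set.

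Cyc1 95072_at had 1583 and 1657 in feeder cells and 3583, 3138 and 3616 in undifferentiated cells, with no overlap. Atp5a1 had 2349 and 2449 in feeder cells and 4103, 3757 and 4265 in undifferentiated cells, also with no overlap. Of these 5 calls, that of Cyc1 95072_at was made in every fit that left out 1 array, and the other 4 were lost without at least 1 (adjusted p up to 0.186 for Cox7a1, 0.306 for Cyc1 162469_r_at, 0.176 for Uqcrc2 and 0.14 for Atp5a1). Within fluidics run 1 the members' median was -0.14 and within run 2 it was -0.05, and with the run as a block 3 members were called higher and 5 lower. Leaving out any 1 array of either group gave 0 higher (1 or 2 at an unadjusted p under 0.05 by limma) and 1 or 2 lower. The counts in those fits and with the run as a block do not set the members against the array, since the share of all probe sets is not given.

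**Figure D5:**
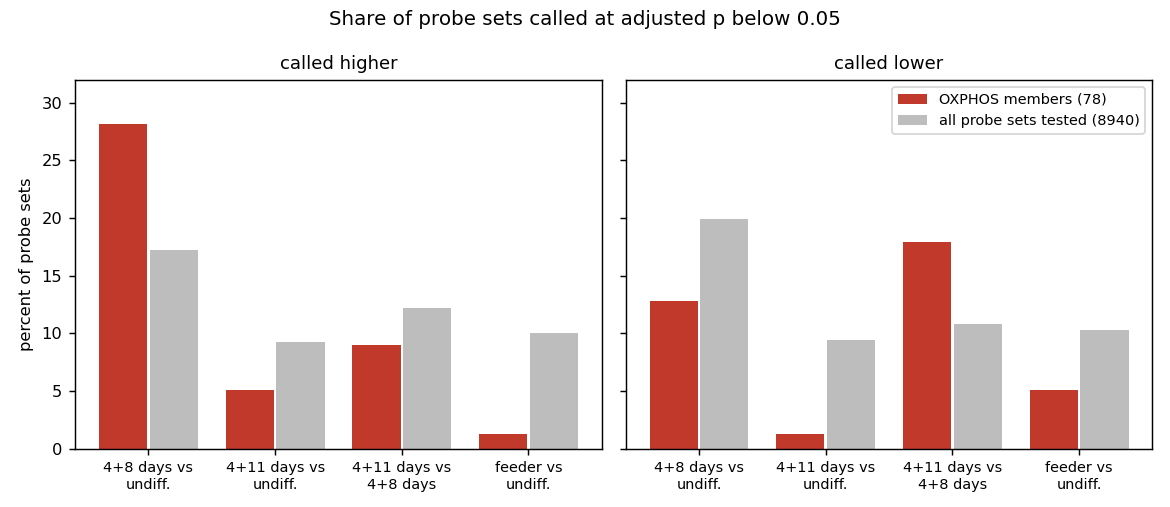
Percent of the 78 OXPHOS probe sets and of all 8940 probe sets tested that were called higher (left) and lower (right) in each comparison. At 4+8 days against undifferentiated cells 28.2% of members and 17.2% of all probe sets were called higher. At 4+11 days and in feeder cells the members' bars are below those of all probe sets in both directions.

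Other mitochondrial gene lists gave a setting for these values, each gene represented by its brightest tested probe set. Mitochondrial ribosomal proteins, which translate the subunits encoded in mitochondrial DNA, were lower more often than higher. That balance turned at 4+8 days on the values as deposited, where the median of all probe sets shifted to 1.07. At 4+8 days 4 of 59 tested genes were higher and 23 lower than in undifferentiated cells (median -0.44), against 17.2% and 19.9% of all probe sets, at 4+11 days 0 and 10 (median -0.31), and in feeder cells 0 and 14 (median -0.51). At an unadjusted p under 0.05 by limma, 2 were higher at 4+11 days and 0 in feeder cells. Mrps5 fell to 15.5 ± 9.8 at 4+8 days, against 114 ± 34 in undifferentiated cells (SD, n = 3 each, log2 difference -2.45), and Mrpl15 to 163 ± 9.0 at 4+11 days, against 549 ± 33 (SD, n = 3 each, -1.70). The 4+8 day arrays of Mrps5 had a mean below the filter value, so the size of that difference depends on the added constant. With trimmed-mean scaling 4 were higher and 22 lower at 4+8 days (median -0.39), and as deposited 15 were higher and 5 lower (median 0.41), where all probe sets had medians of 0.27 and 1.07. As deposited, 2 were higher and 1 lower at 4+11 days, and 0 higher and 1 lower in feeder cells.

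Among regulators of mitochondrial biogenesis, 0 of 13 tested genes were higher and 7 lower at 4+8 days (0 higher at an unadjusted p under 0.05 by limma, median -0.74), against 17.2% and 19.9% of all probe sets. With trimmed-mean scaling 0 were higher and 5 lower (median -0.82), but as deposited 4 of 12 were higher and 1 lower (median 0.14). All probe sets had medians of 0.27 and 1.07 under these scalings. Gabpa, the DNA-binding subunit of GABP (NRF-2), a factor known for binding promoters of OXPHOS genes, had 87.9 ± 50 at 4+8 days, against 306 ± 58 in undifferentiated cells (SD, n = 3 each, -1.87 ± 0.39, adjusted p = 0.00492). Gabpa at 4+11 days had 247 ± 18 (SD, n = 3) and was not called (-0.29). Tfb2m, a mitochondrial transcription factor, had 21.0 ± 5.6 at 4+8 days, against 102 ± 8.1 in undifferentiated cells (SD, n = 3 each, -1.94), a size that depends on the added constant because the 4+8 day mean is below the filter value. Pprc1, a coactivator related to PGC-1, was lower at 4+8 days (-1.60), at 4+11 days (-1.26) and in feeder cells (-1.02). Esrrb, an orphan nuclear receptor also used by pluripotent cells, was called lower in the same comparisons, but its mean was below the filter value in every group (32.3 ± 12 in undifferentiated cells, SD, n = 3), and it was tested only because some undifferentiated arrays passed the filter. Ppargc1a (PGC-1 alpha) and Tfam were on the array but too dim to be tested.

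Counts for neighbouring pathways are to be read against the shares of all probe sets, 17.2% higher and 19.9% lower at 4+8 days and 9.22% and 9.44% at 4+11 days. Of 15 tested genes of the TCA cycle and pyruvate dehydrogenase, 2 were higher and 2 lower at 4+8 days, among them Idh2 (1.25) and Pdhb (-1.11), and 1 was higher and 2 lower at 4+11 days. Of 15 genes of fatty acid beta-oxidation, 1 was higher and 2 lower at 4+8 days, 3 were higher and 1 lower at 4+11 days, and 3 were higher and 3 lower in feeder cells (against 10% and 10.3% of all). As deposited, 10 genes of each of these lists and of the assembly factors were called higher at 4+8 days. Their medians there were 0.75, 0.97 and 0.87, below the 1.07 of all probe sets. The directions therefore depend on the scaling, and counts on the deposited values are to be read against the shift of the whole array. Acaa2, the last enzyme of the cycle, had 1467 ± 130 at 4+8 days and 1584 ± 295 at 4+11 days, against 509 ± 33 in undifferentiated cells (SD, n = 3 each). Acadm, the medium-chain dehydrogenase, was lower at both stages (-1.43 and -1.21). Of 16 assembly factors 1 was higher and 4 lower at 4+8 days, with Phb2 at -1.10 and Atpif1, the inhibitor of ATP synthase, at 0.79, and 2 were lower at 4+11 days (Lrpprc at -0.81 and Phb2 at -0.67).

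Of 5 tested genes for nucleotide transport and mitochondrial creatine kinases, 1 was higher and 2 lower at 4+8 days (median -0.47). The lower ones were Vdac2 (-1.78) and Ckmt1 (-1.06). The mean of Ckmt1 was above the filter value only in undifferentiated cells, so the size of its difference depends on the added constant. It passed the filter only with the help of undifferentiated arrays, where it was high. Its lower call is therefore no independent support. Slc25a4, the heart and muscle form of the ADP/ATP carrier, was higher at 4+8 days (1.04 ± 0.21, adjusted p = 0.00388) and at 4+11 days (1.22 ± 0.21, adjusted p = 0.00412). Its mean was 4133 ± 999 at 4+8 days and 4621 ± 485 at 4+11 days, against 1968 ± 57 in undifferentiated cells (SD, n = 3 each).

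Promoters were compared with the calls because members of this system are known to share binding motifs. RefSeq (GRCm38.p6) gave 61 promoters of 56 member genes, each reaching 250 bases upstream and 50 downstream of the start. Searched on both strands, the NRF1 motif GCGCANGCG was in 26.2% of member promoters and 6.25% of all 32851 promoters, the GABP motif CCGGAAG in 24.6% and 8.86%, and the YY1 motif AANATGGC in 21.3% and 6.05%. The ERR motif TNAAGGTCA was in 1.64% and 1.28%. The MEF2 motif TATTTATA, bound by factors of muscle, was in none of the member promoters and in 1.7% of all. These shares are a description of sequence, and no match says only that the letters are not in this window.

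Below are the promoters of a muscle isoform that was higher at 4+8 days (Cox8b, chr7:140900397-140900696, minus strand), of a subunit that did not pass the test (Cox6a1, chr5:115348909-115349208, minus strand), of the most negative complex II subunit (Sdha, chr13:74350191-74350490, minus strand) and of a complex I subunit higher at both stages (Ndufb7, chr8:83566508-83566807, plus strand). Each is written 5' to 3' along the gene, with motif matches in capitals. Positions are those of a match's first base, counted from the gene's start. Cox6a1 has 3 NRF1 matches, at -162, -161 (overlapping the first) and -117, and a GABP match at -16. Sdha has 3 NRF1 matches, at -98, -55 and -10. Ndufb7 has a GABP match at -20, and Cox8b has no match to any of the 5 motifs. Cox6a2 and Cyc1 had no entry.
Cox8b: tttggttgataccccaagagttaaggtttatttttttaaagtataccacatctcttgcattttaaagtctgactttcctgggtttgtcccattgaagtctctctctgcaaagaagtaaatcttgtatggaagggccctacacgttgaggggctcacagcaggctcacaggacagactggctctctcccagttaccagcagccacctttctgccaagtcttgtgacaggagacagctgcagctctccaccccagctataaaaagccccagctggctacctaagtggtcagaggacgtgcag
Cox6a1: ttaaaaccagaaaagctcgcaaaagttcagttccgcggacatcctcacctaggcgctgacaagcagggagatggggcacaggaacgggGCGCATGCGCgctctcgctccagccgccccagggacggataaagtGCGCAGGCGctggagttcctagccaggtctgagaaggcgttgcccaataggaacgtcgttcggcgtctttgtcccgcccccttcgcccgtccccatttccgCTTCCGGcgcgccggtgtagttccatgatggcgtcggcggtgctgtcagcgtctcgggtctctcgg
Sdha: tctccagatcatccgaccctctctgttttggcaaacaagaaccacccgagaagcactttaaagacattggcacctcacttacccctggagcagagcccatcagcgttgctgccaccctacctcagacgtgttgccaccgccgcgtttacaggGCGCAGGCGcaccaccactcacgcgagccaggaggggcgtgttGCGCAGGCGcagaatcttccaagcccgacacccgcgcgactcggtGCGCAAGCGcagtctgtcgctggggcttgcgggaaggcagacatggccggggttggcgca
Ndufb7: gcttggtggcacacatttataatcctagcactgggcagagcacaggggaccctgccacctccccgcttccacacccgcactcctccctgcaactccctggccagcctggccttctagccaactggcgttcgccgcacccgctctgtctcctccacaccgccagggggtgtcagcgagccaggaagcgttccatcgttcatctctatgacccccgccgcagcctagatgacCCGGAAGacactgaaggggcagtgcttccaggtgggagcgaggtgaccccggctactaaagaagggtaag
Of the 15 genes with NRF1 matches, 3 were higher at 4+8 days (Atp5o, Ndufa6 and Ndufa8) and 2 lower (Sdha and Cycs). Another 1 was called both ways by its probe sets (Atp5l) and 9 were not called, Cox6a1 among them. Of 15 with GABP matches, 4 were higher, 0 lower, 1 called both ways and 10 not called. Of 13 with YY1 matches, 2 were higher, 1 lower and 10 not called. Over all probe sets tested 17.2% were higher and 19.9% lower. Whether calls go with a motif was not tested.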

How the data were processed

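The deposited values are probe set intensities on a linear scale, 1 array a sample. Per the file headers, scan session and chip lot separate the 4+8 day arrays from the rest. How probes were summarised is not given in the sources used. Members, lists and tests were chosen with earlier results of these data known.

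Intensities of all 12488 probe sets were quantile normalised over 11 arrays, the 66 control probe sets were then left out, and 8940 probe sets above 33.35 (the 40th percentile) on at least 2 arrays were tested as log2(intensity + 8), 8 being about the 20th percentile. Detection calls were not used, and the number of arrays limits the precision. Groups were compared with limma 3.58.1 (R 4.3.3), lmFit and eBayes, in a single fit of 4 groups (7 residual and 3 prior degrees of freedom), two-sided, with Benjamini-Hochberg adjustment over all probe sets tested and a call at an adjusted p below 0.05. The fit was tested on simulated data. Isoform differences used exact permutation tests (SciPy 1.17.1).

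Any member may be named. Values on every array are given for the muscle isoforms and their counterparts, and for the most positive and most negative member of each complex at both stages; other members so described were chosen after their values were seen. From the other lists, named genes are the 4 called ones with the largest change in a comparison, beside Ppargc1a, Ppargc1b, Nrf1, Gabpa, Tfam and Esrrb, of which Ppargc1b and Nrf1 had no probe set with a single symbol. Probe sets are named by the platform annotation, and coordinates and promoters come from RefSeq GRCm38.p6, which matched all 70 genes. Alternatives were other normalisations, added constants, filters and priors, the fluidics run, the wash protocol, 1 probe set a gene, and leaving out each array. A fit without the 4+8 day arrays was added after seeing the data.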

Additional observations from a re-analysis of the deposited data

Results flagged for a closer look

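The members below differed between 4+8 and 4+11 days in the test of the difference itself, so that their differences from undifferentiated cells were not the same at both stages. The log2 differences, 4+11 minus 4+8 days, were lower for Cox6a2 (-2.48), Cyc1 162469_r_at (-1.82), Cox8c (-1.69), Cox8b 160851_r_at (-1.60), Ndufa1 (-1.18), Ndufa10 (-0.94), Ndufb2 95132_r_at (-0.85), Atp5g1 (-0.84), Uqcrb (-0.76), Atp5o (-0.62), Ndufb8 (-0.62), Cox7a2l (-0.61), Atp5g2 102134_f_at (-0.57) and Ndufb7 (-0.57). They were higher for Cox6b2 97351_i_at (2.002), Cox7b (1.19), Sdha (1.02), Ndufb9 (0.96), Cox6c 100550_f_at (0.72), Cycs (0.67) and Ndufa2 (0.60). The stages were scanned in different sessions, so stage and session cannot be told apart.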

How the results depend on the processing

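Scaling mattered most for the 4+8 day arrays. Counts in this section are given without the share of all probe sets called under each setting, so they do not set the members against the array. On the values as deposited, 59 members were higher and 0 lower at 4+8 days than in undifferentiated cells, and 0 were lower at 4+11 days. Between the stages 1 was higher and 33 lower at 4+11 days, and in feeder cells 2 were higher and 0 lower. The median of all probe sets shifted too, to 1.07, 0.255, -0.645 and 0.32 in these comparisons. Uqcrc2 (0.026), Atp5l 99678_f_at (0.35) and Cycs (0.31) turned sign at 4+8 days. At 4+11 days against undifferentiated cells, 2 were higher with trimmed-mean scaling and 2 with no filter, and 2 were lower with cyclic loess, 3 with a filter at the 60th percentile, 2 in a fit of the compared groups alone, 3 with a trended robust prior and 2 with the run blocked. In feeder cells, 0 were higher and 2 lower with no filter, 0 higher with 1 probe set a gene, 3 higher and 8 lower in a fit of those groups alone, 2 higher with the trended prior and 3 with the run as a block. A fit of the compared groups alone called 12 higher at 4+8 days, and 0 higher and 5 lower at 4+11 against 4+8 days. Without the arrays washed under another protocol, the counts higher and lower were 10 and 6 at 4+8 days, 0 and 0 at 4+11 days, 0 and 5 between the stages, and 0 and 1 in feeder cells. Without the 4+8 day arrays, they were 6 and 4 at 4+11 days and 2 and 6 in feeder cells. Leaving out each array in turn gave 13 to 24 higher and 7 to 11 lower at 4+8 days, 1 to 2 higher and 0 to 2 lower at 4+11 days, 1 to 8 higher and 6 to 19 lower between the stages, and 0 higher and 1 to 2 lower in feeder cells. Where a count was 0, which happened 19 times over all alternatives, 0 to 8 members passed an unadjusted p under 0.05 by limma. The shift of Cox6a2 minus Cox6a1 was 4.37 with cyclic loess, 5.23 and 3.81 with added constants at the 5th and 40th percentile at 4+8 days and 1.64 with the 40th percentile at 4+11 days, and that of Cox8b minus Cox8a was 0.85 with the 5th percentile at 4+11 days. The cause of these differences was not tested. No paired analysis was possible because the groups compared share at most 1 replicate number. Signal near the filter value limits Cox7a1, Cox8a, Cox8b 161205_at, Cox6b2 160813_r_at, Esrrb and Ckmt1. It also limits the undifferentiated levels of Cox6a2, Ndufa1, Cox4i1 93788_at, Atp5g1, Myh7, Tnnt2 and Fabp7, and the 4+8 day levels of Atp5l 99678_f_at, Mrps5 and Tfb2m.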
